A study of Nicotiana plumbaginifolia and Nicotiana benthamiana and Nicotiana rustica with 81 samples.

Results

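The berberine bridge-like oxidases described here are 2 reference transcripts of tobacco (Nicotiana tabacum) out of 38230 in the deposited table. XM_016601690.1 is annotated as cannabidiolic acid synthase-like (LOC107781064; closest Arabidopsis locus AT1G30700), and XM_016623365.1 as a reticuline oxidase-like protein (LOC107800217; closest Arabidopsis locus AT1G34575). Both were chosen by identifier, for annotation to this family and for very high values at nectary stage 12 in some species. Stage 12 levels are therefore a description and carry no test, and only the step from stage 6 to stage 9 is tested for them.

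Berberine bridge enzyme-like proteins are secreted or vacuolar flavoproteins that oxidise small molecules with a bound FAD and pass the electrons to oxygen, which gives hydrogen peroxide in many members. The family is named after the enzyme that closes the berberine bridge in reticuline in alkaloid-making poppies. It also holds the cannabinoid synthases of Cannabis, the BBL enzymes of tobacco nicotine synthesis, and Arabidopsis oxidases of monolignols and of cell wall oligosaccharides. In ornamental tobacco, nectarin V, a nectar protein with glucose oxidase activity, belongs to the same family, and tobacco nectar is known for high hydrogen peroxide. Neither transcript is annotated as a nectarin, and the substrate of neither is given by the annotation.

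Floral nectaries were dissected by hand at 4 stages from 6 wild or cultivated Nicotiana species, and leaf, ovary and sepal were taken from N. plumbaginifolia, with 3 RNA-seq libraries per group and 81 in all. Plants came from 1 germplasm line per species: N. benthamiana TW-17, N. rustica TR-16, N. glauca TW-54, N. plumbaginifolia TW-107, N. bonariensis TW-28 and N. clevelandii TW-31. Nectaries were immature at stage 6, before secretion at stage 9, at anthesis at stage 12, and after fertilization in the post secretory group; no group carries a transgene or treatment. The sample titles give sepal as an organ, but the written protocol speaks of stems. All columns of N. bonariensis and N. clevelandii hold the same values, so they were counted once as 1 joint profile, and whose nectaries it describes cannot be told apart. That leaves 5 profiles, 20 nectary groups and 23 groups in all.

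Values are the authors' normalised read counts, given as a mean and an SD (±) over the 3 libraries of a group and rounded to whole numbers. Library totals are not in the table, so the depth behind each value is unknown, and precision is read from the SDs. Whether the 3 libraries came from separate plants is not stated, so their spread may be technical. Reads of every species were assigned to N. tabacum transcripts. How far sequence divergence from that reference, or a near-identical second copy in the allotetraploid tobacco genome, alters a species' value was not tested, and levels are compared within 1 transcript because no lengths are given. The median SD over transcripts with a mean of 100 or more was 6.89% of the mean in the middle group, and was highest in leaf (32.3%), joint post secretory (24.7%), N. rustica post secretory (21.5%) and N. glauca stage 12 (16.9%). In N. plumbaginifolia the summed nectary markers (18 transcripts, with CRABS CLAW, SWEET9, MYB305-like and nectarin genes) lay between 6103 and 19843 in the nectary stages, against 326 in leaf, 2720 in ovary and 2973 in sepal. The leaf mesophyll markers (31 transcripts) summed to 347195 in leaf and to at most 15273 in those nectaries.

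The cannabidiolic acid synthase-like transcript XM_016601690.1 had a higher mean at each stage up to anthesis in all 5 profiles, and a far lower one after secretion. In N. rustica its mean normalised count was 7465 ± 153 at stage 6, 88108 ± 2445 at stage 9, 98324 ± 5185 at stage 12 and 239 ± 130 after secretion. In N. plumbaginifolia it was 666 ± 165, 6176 ± 483, 59563 ± 4243 and 5778 ± 361 at the same stages. In N. glauca the values were 614 ± 13, 6903 ± 303, 16092 ± 5493 and 5 ± 1. These 3 profiles share a steep early rise, but of the 5 profiles only N. plumbaginifolia had a post secretory mean above its stage 6 mean. The joint profile gave 3120 ± 134, 8671 ± 1020, 10345 ± 483 and 153 ± 206. N. benthamiana had the lowest anthesis mean, with 416 ± 35, 750 ± 38, 1285 ± 40 and 11 ± 2. In the post secretory joint group the SD exceeded the mean, so at least 1 of its libraries stood well away from the others.

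**Figure D1:**
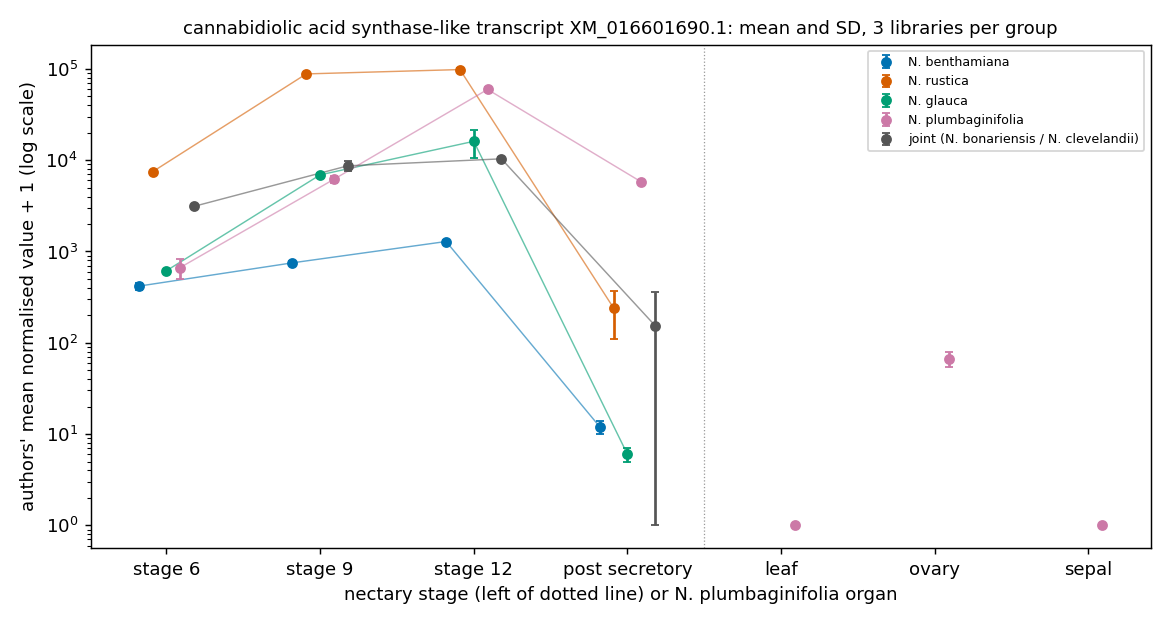
Authors' mean normalised count + 1 of XM_016601690.1 on a log axis, by nectary stage (left of the dotted line) and N. plumbaginifolia organ; points are group means, bars 1 SD of 3 libraries (lower bars stop at a value of 0), and lines join the stages of 1 profile. N. rustica is highest at stages 6 to 12, N. plumbaginifolia is highest after secretion at 5778, and leaf and sepal are listed at 0.

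Ranking the 23 groups by mean put N. rustica stage 12 first, N. rustica stage 9 second and N. plumbaginifolia stage 12 after them. Of the 22 neighbouring pairs in that order, 14 differed by more than the sum of their 2 SDs and 8 did not. At stage 6 the order was N. rustica, the joint profile, then N. plumbaginifolia and N. glauca within each other's spread, then N. benthamiana. At stage 9 the order was N. rustica, the joint profile, N. glauca and N. plumbaginifolia, the last pair again within their spread, and N. benthamiana. At stage 12 N. plumbaginifolia had moved to the second place, 43471 above N. glauca, whereas N. glauca and the joint profile did not differ beyond their spread. At the post secretory stage N. plumbaginifolia stood 5539 above N. rustica, and N. rustica, the joint profile and N. benthamiana followed without a gap beyond their spread between neighbours. This one transcript made up 0.987% of all summed means of N. rustica at stage 12 and 0.666% of those of N. plumbaginifolia.

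From stage 6 to stage 9, the step that did not enter the choice of the transcripts, XM_016601690.1 was higher in 5 of 5 profiles. The ratio of the means (each + 1) was 11.8 in N. rustica and 11.2 in N. glauca, against 1.8 in N. benthamiana and 2.78 in the joint profile, with N. plumbaginifolia at 9.26. Given each mean and SD, every one of 3 libraries must lie within 1.155 SDs of the mean, and by that bound the libraries of the 2 stages could not overlap in any of the 5 profiles. Over the 36627 transcripts with a mean of 10 or more across the nectary groups, 0.42% were higher in this way in all 5. The authors' deposited table calls this step in 5 of 5 profiles for XM_016601690.1, and in all 5 for 0.371% of those transcripts. With the profiles as replicates, limma gave a mean log2 change of 2.52 (SE 1.13, unadjusted p = 0.042, Benjamini-Hochberg adjusted p = 0.6 over all transcripts; 0.25 to 0.92 over 13 alternatives). The increase shared by the profiles did not pass the adjusted threshold of 0.05, which 0% of all transcripts passed for this step, while 8.16% had an unadjusted p under 0.05.

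Between stage 9 and anthesis the profiles diverged in the size of the change, described here without a test. The mean of N. plumbaginifolia was higher by a further 3.27 on the log2 scale, that of N. glauca by 1.22 and that of N. benthamiana by 0.78. In N. rustica the log2 change was 0.16 and in the joint profile 0.25. On the log2 scale, most of the increase in N. rustica, the joint profile and N. glauca (3.49 before, 1.22 after) thus lay before stage 9. That in N. plumbaginifolia (3.21 and 3.27) and N. benthamiana (0.85 and 0.78) was divided about evenly on this scale. As differences of means, the increase was 5510 and then 53387 in N. plumbaginifolia, and 6289 and then 9189 in N. glauca. The libraries of the 2 stages could not overlap in 4 of 5 profiles, the joint profile being the exception. Of the transcripts compared, 30.7% in N. benthamiana, 23.3% in N. glauca, 28.4% in N. rustica and 23.6% in N. plumbaginifolia were higher in this way. This step is called in 3 profiles in the authors' deposited table, N. benthamiana, N. glauca and N. plumbaginifolia, where 19.6%, 13% and 15.7% of transcripts are called. Stage 12 values chose the transcript, so nothing is read from these shares. Over the whole path from stage 6 to stage 12 the log2 change was 6.48 in N. plumbaginifolia, 4.71 in N. glauca, 3.72 in N. rustica, 1.73 in the joint profile and 1.62 in N. benthamiana.

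After secretion XM_016601690.1 was lower than at anthesis in 5 of 5 profiles, with libraries that could not overlap in any. The share of all transcripts with that pattern was 0.748%. The mean at anthesis was 410-fold higher in N. rustica, 67.2-fold in the joint profile, 107-fold in N. benthamiana and 10.3-fold in N. plumbaginifolia (ratios of mean + 1). In N. glauca the log2 change was -11.39, down to a mean of 5. In the authors' deposited table the step is called in 5 of 5 profiles, against 0.497% of transcripts called in all 5. The stage 12 values that chose the transcript enter this contrast, so nothing is read from either share.

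The N. plumbaginifolia profile went the other way when the post secretory nectary was set against the immature one. There the level was 8.66-fold above stage 6 (log2 change 3.12, SE 0.21). The other 4 profiles ended below their stage 6 level, by log2 changes of -6.68 in N. glauca, -5.12 in N. benthamiana, -4.96 in N. rustica and -4.34 in the joint profile. Libraries could not overlap in any of the 5 profiles. In N. plumbaginifolia 26.9% of the transcripts compared were higher in this way; lower were 32.3% in N. glauca, 30.8% in N. benthamiana, 25.6% in N. rustica and 24.8% in the joint profile. The comparison is called in 5 of 5 profiles in the authors' deposited table, as it is for 1.19% of transcripts.

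**Figure D2:**
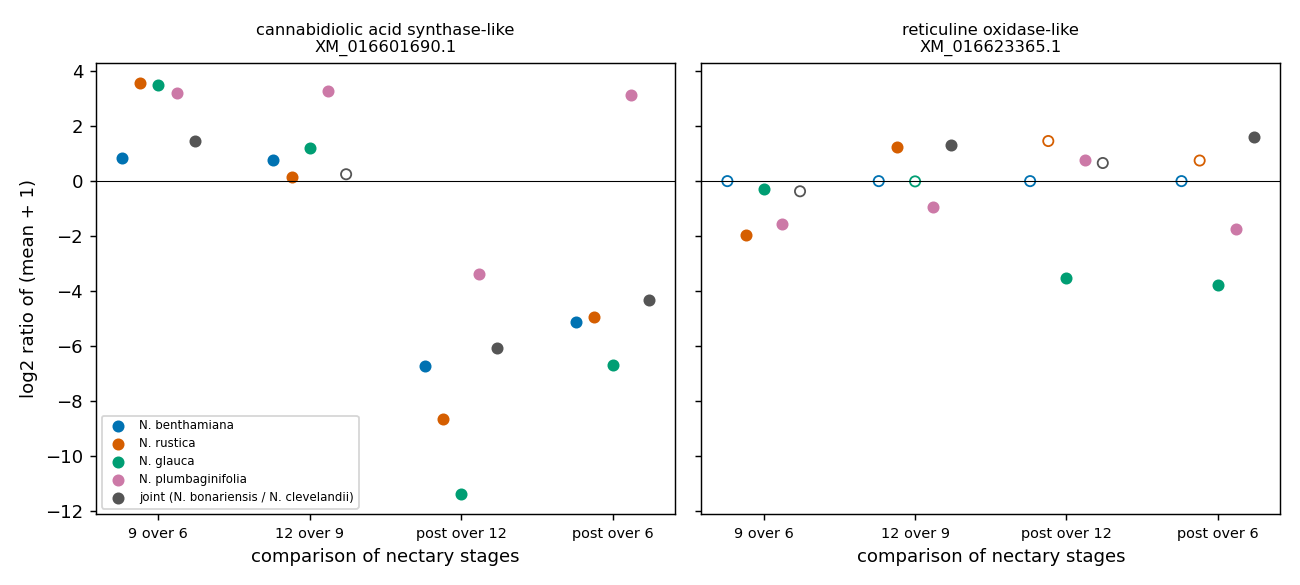
Log2 ratio of (mean + 1) between nectary stages for XM_016601690.1 (left) and XM_016623365.1 (right), 1 point per profile; filled points are comparisons whose 3 libraries per group cannot overlap, open points those whose libraries can. On the left the post secretory over stage 6 value of N. plumbaginifolia is 3.12 and the other 4 lie between -6.68 and -4.34.

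The nectary markers moved with this decline as a sum, but not every listed transcript did. From stage 12 to the post secretory stage their summed mean (18 transcripts) went from 92343 to 904 in N. benthamiana (102-fold), from 64513 to 1042 in N. glauca (61.9-fold) and from 59370 to 1345 in N. rustica (44.1-fold). The joint sum went from 27872 to 1189 (23.4-fold), and that of N. plumbaginifolia from 19843 to 6103 (3.25-fold). N. plumbaginifolia thus had the smallest decline both in XM_016601690.1 and in the marker sum. A single NEC1-like transcript (XM_016615427.1) held 70716 of the N. benthamiana stage 12 sum. The listed nectarin-1-like XM_016657282.1 went the other way in all 5 profiles. Its mean went from 147 to 495 in N. benthamiana, 81 to 368 in N. rustica and 364 to 707 in N. glauca. In N. plumbaginifolia it went from 287 to 483 and in the joint profile from 287 to 401. Over the same interval the leaf mesophyll sum (31 transcripts) went up 17.9-fold in N. glauca, 5.34-fold in the joint profile and 3.18-fold in N. rustica. It went up 2.17-fold in N. plumbaginifolia and 1.75-fold in N. benthamiana. In N. glauca 23 of the 31 were listed at 0 at stage 12 and 24 after secretion. In N. benthamiana the small chain transcripts of ribulose bisphosphate carboxylase XM_016585367.1 (4806 to 3122) and XM_016591166.1 (4353 to 1696) went down. There the chlorophyll a/b binding transcript X52744.1 went up (1218 to 5994). The summed ovule list (13 transcripts) went down between 1.32-fold in N. plumbaginifolia and 3.46-fold in the joint profile. Its AGL11 transcripts XM_016616449.1 and XM_016619520.1 went up in N. benthamiana (50 to 215 and 225 to 612) and N. glauca (19 to 165 and 65 to 446). They also went up in N. plumbaginifolia (566 to 819 and 689 to 964). Both went down in the joint profile (1197 to 130 and 1077 to 112), and in N. rustica they split (56 to 79 and 141 to 69). The vascular list (7 transcripts) went up 4.95-fold in N. glauca, 3.54-fold in N. benthamiana, 3.03-fold in the joint profile and 2.47-fold in N. rustica, and down 1.37-fold in N. plumbaginifolia. In bulk tissue, fewer secretory cells and less RNA per cell cannot be told apart, and the part of tissue composition in the decline was not tested.

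**Figure D3:**
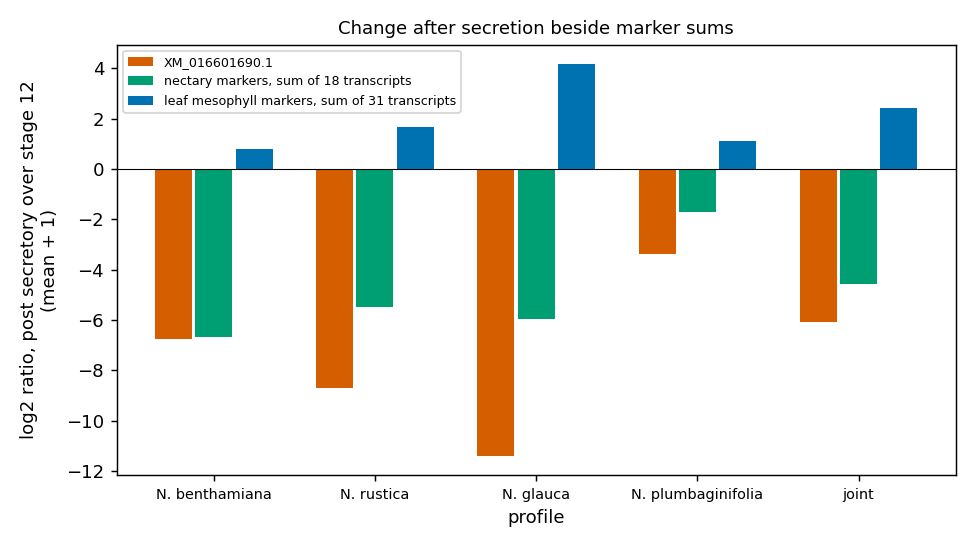
Log2 ratio of post secretory over stage 12 values in each profile for XM_016601690.1, for the sum of 18 nectary marker transcripts and for the sum of 31 leaf mesophyll transcripts, as bars from 0. XM_016601690.1 and the nectary sum are below 0 in all 5 profiles (smallest decline in N. plumbaginifolia), and the leaf sum is above 0 in all 5.

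Outside the nectary, XM_016601690.1 was low or listed at 0 in the organs sampled. In N. plumbaginifolia it was listed at 0 ± 0 in leaf and in sepal and at 66 ± 13 in ovary. The nectary exceeded the ovary 9.96-fold at stage 6, 92.2-fold at stage 9, 889-fold at stage 12 and 86.3-fold after secretion. A lowest nectary stage at least 4-fold above the highest of the 3 organs was seen for 5.82% of 29262 transcripts compared.  Over the 4 nectary stages of N. plumbaginifolia the ovule list summed to between 3653 and 4991, against 4273 in ovary. Its members differed: AGAMOUS-like XM_016580095.1 was at 1073 to 2770 in those stages and 746 in ovary. The AGL11 transcripts XM_016616449.1 (17 to 819 against 1078) and XM_016619520.1 (101 to 1058 against 1442) were lower than in ovary. Pistil-specific extensins (4 transcripts) summed to between 1175 and 8027, against 12596. Of these, XM_016659538.1 was at 1084 to 7798 in the nectary stages, 6109 in ovary and 2422 in leaf. The part of ovary tissue in the nectary values was not tested.

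The reticuline oxidase-like transcript XM_016623365.1 was high in 1 profile, N. glauca. In that species its mean was 24575 ± 562 at stage 6, 20387 ± 535 at stage 9, 20279 ± 12072 at stage 12 and 1760 ± 291 after secretion. No other group of any species reached 200. Its highest mean was that of the immature nectary, but the stage 6 and stage 12 libraries could overlap, so these 2 stages cannot be ordered. The cannabidiolic acid synthase-like transcript had its highest N. glauca mean at anthesis. The stage 12 libraries of XM_016623365.1 differed widely, with an SD of 59.5% of the mean, in a group whose median SD was 16.9%.

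In the other profiles XM_016623365.1 was low, and its highest stage differed between them. N. plumbaginifolia had 198 ± 3, 67 ± 6, 34 ± 6 and 59 ± 4 from stage 6 to the post secretory stage. N. rustica had 107 ± 2, 27 ± 7, 65 ± 15 and 181 ± 208, and the joint profile 34 ± 2, 26 ± 19, 66 ± 3 and 105 ± 35. In N. benthamiana it was listed at 0 in all 4 stages, which for reads assigned to a tobacco reference does not show that the gene is silent. The N. rustica post secretory mean had an SD larger than itself and cannot be placed above or below its earlier stages. Ranking the 23 groups, the 4 N. glauca groups came first, and of the 22 neighbouring pairs 5 differed by more than the sum of their SDs and 17 did not.

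**Figure D4:**
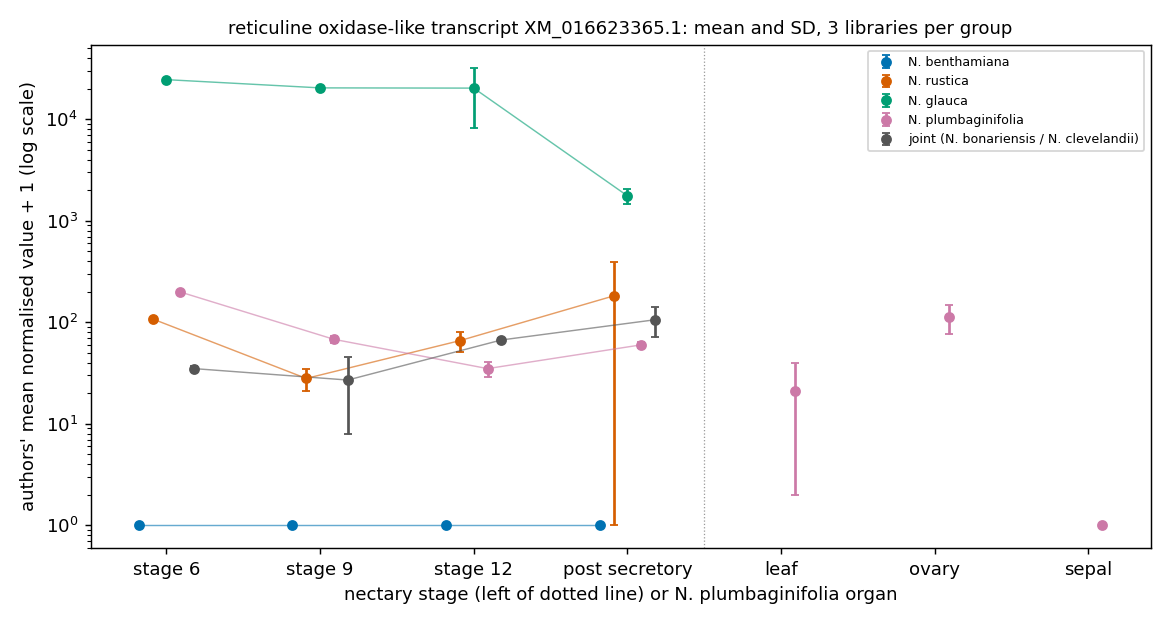
Authors' mean normalised count + 1 of XM_016623365.1 on a log axis, by nectary stage (left of the dotted line) and N. plumbaginifolia organ; points are group means, bars 1 SD of 3 libraries (lower bars stop at a value of 0), and lines join the stages of 1 profile. N. glauca lies at 1760 to 24575, apart from all other groups, and N. benthamiana is listed at 0 throughout.

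From stage 6 to stage 9 the log2 change of XM_016623365.1 was -1.95 in N. rustica, -1.55 in N. plumbaginifolia, -0.37 in the joint profile and -0.27 in N. glauca. Libraries could not overlap in 3 profiles, N. rustica, N. plumbaginifolia and N. glauca, where 26.7%, 27.9% and 25.8% of the transcripts tested were lower in the same way. The step is called in N. rustica and N. plumbaginifolia in the authors' deposited table, where 19.2% and 18% of transcripts are called. Over the profiles, limma gave a log2 change of -0.83 (SE 0.70, unadjusted p = 0.26, adjusted p = 0.78), which did not pass the threshold.

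In later steps the profiles differed in direction for XM_016623365.1, given as a description. From stage 9 to stage 12 the log2 change was 1.24 in N. rustica and 1.31 in the joint profile, -0.96 in N. plumbaginifolia, and -0.01 in N. glauca, where the libraries could overlap. The libraries could not overlap in the first 3, as for 28.4% (higher, N. rustica), 14.7% (higher, joint profile) and 20.5% (lower, N. plumbaginifolia) of transcripts. After secretion N. glauca was 11.5-fold lower (log2 change -3.53, SE 0.51), and N. plumbaginifolia was higher by 0.78. Libraries could not overlap in either, as for 29.5% (lower) and 19.9% (higher) of transcripts in these profiles. Only the N. glauca step is called for this transcript in the authors' deposited table, as for 19.9% of transcripts in that species. In the same N. glauca libraries the log2 change was -3.53 for XM_016623365.1 and -11.39 for XM_016601690.1, a much larger decline. Both are ratios within a transcript.

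Unlike XM_016601690.1, XM_016623365.1 was not higher in the nectary of N. plumbaginifolia than in all other organs. Its mean was 112 ± 36 in ovary, 20 ± 19 in leaf and 0 ± 0 in sepal. Stage 6 lay above ovary (1.76-fold) with libraries that could not overlap, as for 33.5% of transcripts. Stage 12 and the post secretory stage lay below it in the same sense, as for 44.6% and 43.4% of transcripts, and stage 9 could overlap with it. The authors' deposited table calls each nectary stage against ovary, stage 9 included. The share of all transcripts called in these comparisons is not given here, so nothing is read from the calls.

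By Arabidopsis match or description the family has 19 transcripts, and the 17 others all passed the filter on low values. Their highest group means ran from 102 to 1372, 1 of the 17 reached 1000 in any group, and 150 of their 391 group values were 0. With the same limma fit, 0 of the 17 passed an adjusted p of 0.05 in any of the 4 steps. For stage 9 against 6 and for stage 12 against 9, 0% of all transcripts passed. Nothing about the family is read from the 0 in those steps. At an unadjusted p under 0.05 there was 1 for stage 9 against 6 (8.16% of all transcripts) and 0 for stage 12 against 9 (4.85%). There were 5 for post secretory against stage 12 (16.3%) and 3 for stage 12 against 6 (16.8%). Among all transcripts, 0.232% were called higher and 0.554% lower for post secretory against stage 12, and 0.478% and 0.36% for stage 12 against 6. Up to anthesis most of the 17 had fitted changes above 0, although 0 of the 17 passed the threshold. There were 12 of 17 for stage 9 against 6 (median log2 change 0.22, against 0.03 over all transcripts), 14 for stage 12 against 9 (0.31 against 0.05) and 14 for stage 12 against 6 (0.45 against 0.08). For post secretory against stage 12, 13 of 17 were above 0 (median 0.43 against -0.04), while the fitted change of XM_016601690.1 was -7.25 (SE 1.13). The share of all transcripts with a change above 0 was not counted, so nothing is read from these counts. Stage 12 values chose XM_016601690.1 and enter its change after secretion. Differences between XM_016601690.1 and its relatives were not tested.

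The relative with the highest nectary mean was XM_016610118.1, a flavin-dependent oxidoreductase FOX1-like transcript (AT1G30760). Among the nectary stages its mean was highest after secretion in all 5 profiles, but with a wide spread in N. rustica and the joint profile. These had 389 ± 240 and 309 ± 301 after secretion, against 152 ± 24 and 86 ± 15 at stage 12, and the libraries could overlap. The N. plumbaginifolia mean was 49 ± 4 after secretion, below the 103 ± 20 of its ovary. In N. glauca it had 40 ± 7, 41 ± 8 and 25 ± 18 at stages 6, 9 and 12 and 1372 ± 118 after secretion, where XM_016601690.1 stood at 5 ± 1. Its post secretory change over the profiles was 2.43 on the log2 scale (SE 0.57, limma adjusted p = 0.064), short of the threshold. The FOX2-like transcripts XM_016605126.1 and XM_016619984.1 (both AT5G44400) had changes of 1.61 and 1.84, each with an adjusted p of 0.17 by limma. XM_016605126.1 reached 475 ± 56 in post secretory N. glauca and was listed at 0 in N. rustica and in the nectaries of N. plumbaginifolia. XM_016619984.1 reached 378 ± 228 in post secretory N. rustica and 236 ± 10 in N. benthamiana, and was listed at 0 in N. glauca. XM_016610985.1 and XM_016581261.1, both reticuline oxidase-like, reached 365 ± 216 in N. glauca at stage 12 and 323 ± 244 in the post secretory joint profile.

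**Figure D5:**
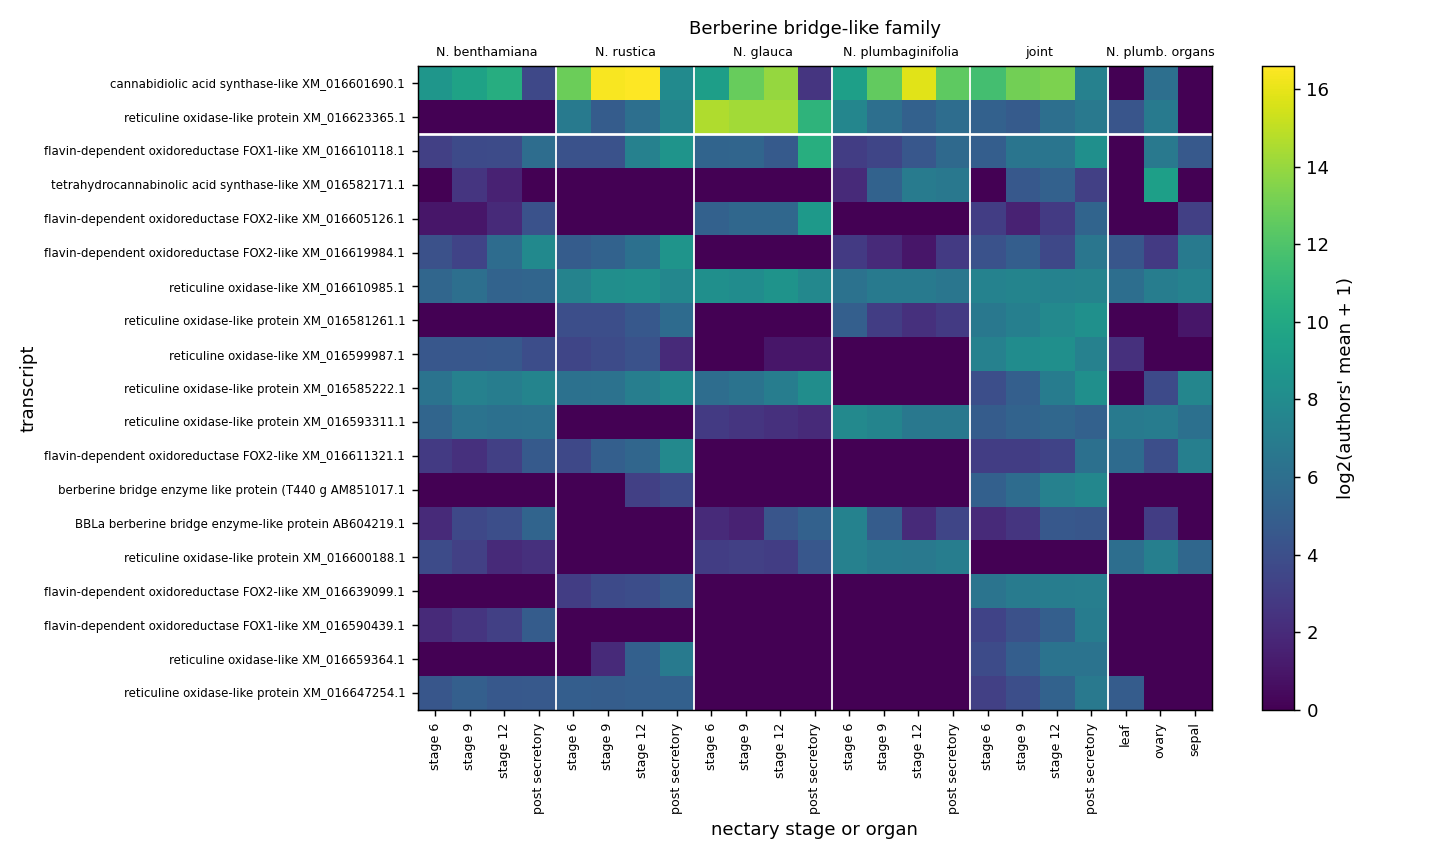
Log2 of (authors' mean + 1) for the 19 family transcripts (rows; the 2 described here above the white line, the others by their highest value) in the 20 nectary groups and 3 N. plumbaginifolia organs (columns). Bright cells are concentrated in the upper 2 rows; values are not scaled by transcript length, so rows are to be read along, not against each other.

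Relatives with a known or cannabinoid-type name were low in nectaries and were picked out after their values were seen. BBLa (AB604219.1), an enzyme of nicotine synthesis in tobacco, had its highest mean, 162 ± 10, in stage 6 nectaries of N. plumbaginifolia, was at 3 ± 3 at stage 12 there, and was listed at 0 in N. rustica. The tetrahydrocannabinolic acid synthase-like XM_016582171.1 was at 120 ± 6 in N. plumbaginifolia at stage 12 but at 654 ± 48 in ovary, the reverse of the order seen for XM_016601690.1.

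Of the 37733 transcripts compared, those whose log2 levels tracked XM_016601690.1 most closely over the 23 groups were a zeatin O-xylosyltransferase-like transcript (XM_016601173.1, Pearson r = 0.937) and zeaxanthin epoxidase (XM_016620556.1, r = 0.915), a carotenoid enzyme upstream of abscisic acid. COP9 signalosome subunit 1-like (XM_016593656.1, r = 0.877), an uncharacterized transcript (XM_016625366.1, r = 0.865) and a violaxanthin de-epoxidase-like transcript (XM_016610647.1, r = 0.863) followed. Groups share the tobacco reference, and those of a species a germplasm line, so these are descriptions without a p. In N. rustica zeaxanthin epoxidase had 7985 ± 206, 55944 ± 1952, 50235 ± 1862 and 1587 ± 757 from stage 6 to the post secretory stage. Its steep early rise and late decline matched XM_016601690.1, but its mean went down from stage 9 to stage 12. The N. rustica means of XM_016601173.1 (18430 ± 254 to 10587 ± 327) and XM_016610647.1 (25503 ± 583 to 11093 ± 569) also went down there. Those of XM_016593656.1 (765 ± 51 to 873 ± 3) and XM_016625366.1 (871 ± 43 to 997 ± 72) went up. Zeaxanthin epoxidase kept a higher post secretory level in N. plumbaginifolia (3248 ± 147) than at stage 6 (1206 ± 59), as XM_016601690.1 did. So did XM_016601173.1 (810 ± 52 against 244 ± 21) and XM_016593656.1 (725 ± 75 against 537 ± 36). By contrast XM_016610647.1 (626 ± 21 against 850 ± 35) and XM_016625366.1 (195 ± 22 against 207 ± 23) did not. Of these 5, 4 were also among the closest 5 by Spearman's rho and 3 with the nectary groups alone.

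For XM_016623365.1 the closest were an uncharacterized transcript (XM_016614004.1, r = 0.949), a late blight resistance homolog R1A-3 (XM_016633039.1, r = 0.93), periodic tryptophan protein 2 (XM_016660005.1, r = 0.922), nuclear transport factor 2-like (XM_016611823.1, r = 0.898) and a SUVH6-like histone methyltransferase (XM_016649304.1, r = 0.888). The first of them was at 257 ± 16 to 453 ± 27 in N. glauca and at 0 in N. benthamiana, and thus also set N. glauca apart from the other species. By Spearman's rho 0 of these 5 remained among the closest 5. The 2 oxidases were themselves weakly alike, with r = 0.24 over the 23 groups.

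Other genes of nectar redox chemistry were looked at as a list of 26 transcripts by role, 24 of which passed the filter. For post secretory against stage 12, 1 was called higher and 1 lower by limma (0.232% and 0.554% of all transcripts), and 10 of the 24 had an unadjusted p under 0.05 (16.3% of all). The one that fell was nectarin-1 (XM_016580669.1), a germin-like superoxide dismutase that makes hydrogen peroxide in tobacco nectar, with a log2 change of -4.33 (SE 0.61, adjusted p = 0.005). The one that rose, a nectarin-1-like transcript (XM_016657282.1), changed by 1.22 (SE 0.21, adjusted p = 0.017). Catalase CAT-1 (U07627.1), which removes hydrogen peroxide, had a log2 change of 3.54 from stage 6 to 12 (SE 0.81, adjusted p = 0.059), short of the threshold. The most abundant respiratory burst oxidase (XM_016593941.1), a source of superoxide, had a change of 0.34 after secretion (SE 0.24, adjusted p = 0.5), nectarin-3-like (XM_016588226.1) one of -2.08 (SE 0.81, adjusted p = 0.23), and a monodehydroascorbate reductase-like transcript (XM_016595431.1) one of -0.61 (SE 0.19, adjusted p = 0.14). For the other 3 steps 0 of the 24 passed. Of all transcripts, 0% passed for stage 9 against 6 and for stage 12 against 9, so nothing is read from the 0 there. For stage 12 against 6, 0.478% of all transcripts were called higher and 0.36% lower. At an unadjusted p under 0.05 there were 2 for stage 9 against 6 (8.16% of all transcripts), 2 for stage 12 against 9 (4.85%) and 3 for stage 12 against 6 (16.8%).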

How the data were processed

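The authors' deposited table holds a mean and an SD per group of normalised values in whole numbers, treated here as a score, with DESeq named in the submitters' processing notes, where no aligner is named. Its yes or no calls are the authors' own deposited calls, with no threshold given. The largest SD over the mean was 1.736 (means of 100 or more), next to the limit of 1.732 for 3 libraries with an n - 1 SD, rounding aside; this sets the bound of 1.155 SDs.

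Ratios and log2 changes used the mean + 1. Approximate SEs within a profile came from the SDs. limma 3.58.1 in R 4.3.3 was fitted to log2(mean + 1) of the 20 nectary groups, with profile as a block and a variance trend, for 36627 transcripts with a mean of at least 10 and 12 residual degrees of freedom; p-values are two-sided and Benjamini-Hochberg adjusted. The fit was tested on simulated data. Named genes were both oxidases, the 5 other family transcripts with the highest nectary mean, those called, the 5 with the highest r for each oxidase, and the most abundant redox transcript per role; nectarin-4 and nectarin-5 matched no description. The transcripts and lists were chosen with earlier results of these data known, and the 1.155 SD bound was added after the values were seen.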

Additional observations from a re-analysis of the deposited data

Results flagged for a closer look

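Post secretory against stage 6, XM_016601690.1 had a log2 change of 3.12 in N. plumbaginifolia, far from the other 4 profiles and opposite to them (-4.34 in the joint profile, -4.96 in N. rustica, -5.12 in N. benthamiana and -6.68 in N. glauca). The gap between this value and its nearest neighbour passed Dixon's 95% critical value of 0.71 for 5 values, which chance passes in about 1 in 20 groups. The libraries could not overlap in any of the 5 profiles, and the difference between profiles was not tested.

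XM_016623365.1 changed in opposite directions in different profiles, each time with libraries of the 2 stages that could not overlap; the differences between profiles were not tested. For stage 12 against 9 the log2 changes were 1.24 in N. rustica and 1.31 in the joint profile, against -0.96 in N. plumbaginifolia. For stage 12 against 6 they were 0.94 in the joint profile, against -0.71 in N. rustica and -2.51 in N. plumbaginifolia. For post secretory against stage 12 they were 0.78 in N. plumbaginifolia and -3.53 in N. glauca. For post secretory against stage 6 they were 1.6 in the joint profile, against -3.8 in N. glauca and -1.73 in N. plumbaginifolia. Outside N. glauca these rest on means under 200.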

How the results depend on the processing

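For stage 9 against 6, both oxidases kept their direction and stayed short of the adjusted threshold under all 13 alternatives each, with XM_016601690.1 between 2.26 and 2.93 and XM_016623365.1 between -1.04 and -0.55 (log2). Those include leaving out each profile in turn and, added after the data were seen, leaving out the 3 nectary groups of widest spread (2.52, adjusted p = 0.5, and -0.83, adjusted p = 0.62). Counting both copies of the joint profile gave 4 family calls in place of 0 for post secretory against stage 12 and 1 for stage 12 against 6; the copy is no independent sample. Leaving out any 1 profile gave 0 to 0 family calls in each step. Rescaling the means by median of ratios (factors 0.966 to 1.23) turned 0 of 50 step directions and moved any log2 step by at most 0.1, moved 13 of 46 levels by over 1 SD, changed the rank of 6 of 23 groups for each oxidase, and put the highest level of XM_016623365.1, N. glauca stage 6, at 22752 in place of 24575. Under the 1.155 SD bound 11 and 4 of the 22 neighbouring pairs were separate, in place of 14 and 5. No paired analysis was possible because the table holds group means and no library values; for the same reason no library could be left out, and library depth, the counting precision of low values and sequence divergence from the tobacco reference could not be assessed.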

Other observations

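One transcript that is no oxidase weighs on the shares given for N. plumbaginifolia. XM_016598866.1, annotated as nuclear poly(A) polymerase 4-like, had a mean of 7143395 ± 4531179 in N. plumbaginifolia nectaries at stage 9, which is 46.8% of that group's summed means, and of 971980 ± 300396 at stage 12 (10.9%). It was at 744 ± 170 in leaf, 553 ± 35 in ovary and 253 ± 17 in sepal of the same species, at most 1230 ± 77 in the other nectary profiles, and listed at 0 in the joint profile. Without it, XM_016601690.1 made up 0.747% of the summed means of N. plumbaginifolia at stage 12 in place of 0.666%. What this transcript's reads come from was not tested.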
